A study of Homo sapiens with 21 samples.

Results

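Nonsense-mediated mRNA decay (NMD) is the pathway that removes messenger RNAs with a premature stop codon, and 9 genes of its core machinery are described here in HepG2 cells exposed to caffeine. The 9 factors are UPF1, UPF2, UPF3A, UPF3B, SMG1, SMG5, SMG6, SMG8 and SMG9. They were chosen by name, and each symbol was matched to 1 Ensembl gene ID of the count table, so the group is 9 of 37637 features. All 9 passed the filter on low counts that left 17468 genes for testing. HepG2 is an established human liver cancer cell line. Its cells were kept for 6 h in serum-free DMEM, which all groups share, with caffeine at 0, 0.01, 0.1, 1, 10, 100 or 1000 µM and no other agent named. There were 3 libraries per dose, described as biological replicates, and 21 in all; p-values measure the spread between these samples. The study's design text names coumarin for its control group, whereas the sample labels give that group as caffeine at 0 µM, and the labels were used.

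In NMD, a ribosome that stops too early leaves an exon junction complex on the mRNA downstream of the stop codon. UPF3B or its paralog UPF3A binds that complex, UPF2 bridges it to the RNA helicase UPF1, and the kinase SMG1 phosphorylates UPF1. SMG8 and SMG9 sit on SMG1 and regulate its activity. Phosphorylated UPF1 recruits SMG6, an endonuclease that cuts the RNA near the stop codon, and SMG5, an adaptor that helps to bring in phosphatase and enzymes of general mRNA decay. The mRNAs of several NMD factors are themselves known to be NMD targets, a feedback by which they accumulate when decay is blocked. SMG1 belongs to the phosphatidylinositol 3-kinase-related kinases (PIKKs), and caffeine is reported to inhibit kinases of this family, SMG1 included.

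The libraries were made from poly(A)-selected RNA. They held between 28043623 and 40827833 counts (median 32497612), and a factor had between 613 counts (the lowest for UPF3B) and 10132 counts (the highest for SMG1) in a library. Levels are given as CPM, the normalised read count, which scales a gene's counts to the size of its library after TMM correction. The marker values in this paragraph are CPM before TMM correction. The liver markers ALB, AFP, TTR, APOA1, APOB, SERPINA1, HNF4A and FGB were present in every library, with HNF4A between 304 and 391 CPM. PTPRC and CD3E, which define white blood cells, had at most 1 count, the fibroblast marker COL1A2 had 0 counts, and of the other markers of non-liver cells only LYZ, at 828 to 1333 CPM, exceeded 9 counts. Because these are bulk samples, fewer cells of a type and less RNA per cell cannot be told apart.

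Positions are on GRCh38 in GENCODE release 29, which holds all 9 IDs, although for UPF2, UPF3A, SMG1, SMG6 and SMG9 the version differs from that in the count table. UPF1 (ENSG00000005007.12) lies at chr19:18831938-18868236 on the plus strand, UPF2 (ENSG00000151461.20) at chr10:11920022-12043170 on the minus strand and UPF3A (ENSG00000169062.15) at chr13:114281584-114305817 on the plus strand. UPF3B (ENSG00000125351.11) lies at chrX:119805311-119852998 and SMG1 (ENSG00000157106.12) at chr16:18804853-18926454, both on the minus strand. SMG5 (ENSG00000198952.8) lies at chr1:156249224-156282825 and SMG6 (ENSG00000070366.14) at chr17:2059839-2303771, both on the minus strand. SMG8 (ENSG00000167447.12) lies at chr17:59209400-59215247 on the plus strand and SMG9 (ENSG00000105771.14) at chr19:43727992-43754990 on the minus strand. Values are for whole genes over all exons, and transcript isoforms were not told apart.

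How far reads could be shared with other genes was taken from the longest transcript of each factor, cut into stretches of 75 bases. For UPF1, UPF2, UPF3B, SMG5, SMG6 and SMG9 none of these stretches occurred in a transcript of another gene. For UPF3A 32.8% did, mostly in the pseudogenes UPF3AP2 and UPF3AP1. For SMG1 14% did, in its 7 pseudogenes and NPIPB5, and for SMG8 10.3% did, in AC099850.2, which overlaps SMG8 by 422 bases on the same strand. The counts of UPF3A, SMG1 and SMG8 are therefore less certain. SMG6 overlaps HIC1 by 2419 exonic bases on the opposite strand, and whether strand was used in counting is not given in the sources used here.

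The upstream sequences of UPF2, UPF3B and SMG1 are shown because these 3 factors were higher at 1000 µM in the comparisons that follow. RefSeq (GRCh38.p14) windows were found for 8 of the 9 factors, SMG8 being the exception. Each sequence holds the 250 bases before a RefSeq transcription start, 5′ to 3′ on the gene's strand, for UPF2 before the more upstream of its 2 starts. Capitals mark matches, on either strand, to 7 short motifs. These were the cAMP response element (CRE) with the letters TGACGTCA, the CCAAT box, the TATA box as TATAAA, the E-box as CACGTG, the ETS site as CCGGAA, the ATF4 site as TGATGNAA and the YY1 site as GCCATNTT.
UPF2, chr10:12043171-12043420, minus strand: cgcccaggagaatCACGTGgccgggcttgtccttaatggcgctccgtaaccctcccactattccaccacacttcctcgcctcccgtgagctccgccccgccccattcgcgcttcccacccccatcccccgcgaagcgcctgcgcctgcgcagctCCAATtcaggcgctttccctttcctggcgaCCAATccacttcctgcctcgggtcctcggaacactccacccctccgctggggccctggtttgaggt
UPF3B, chrX:119852964-119853213, minus strand: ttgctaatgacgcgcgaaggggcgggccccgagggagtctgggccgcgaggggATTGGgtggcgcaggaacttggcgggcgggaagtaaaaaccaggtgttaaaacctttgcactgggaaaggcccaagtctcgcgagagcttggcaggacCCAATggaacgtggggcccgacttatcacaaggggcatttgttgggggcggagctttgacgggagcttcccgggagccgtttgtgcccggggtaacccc
SMG1, chr16:18926409-18926658, minus strand: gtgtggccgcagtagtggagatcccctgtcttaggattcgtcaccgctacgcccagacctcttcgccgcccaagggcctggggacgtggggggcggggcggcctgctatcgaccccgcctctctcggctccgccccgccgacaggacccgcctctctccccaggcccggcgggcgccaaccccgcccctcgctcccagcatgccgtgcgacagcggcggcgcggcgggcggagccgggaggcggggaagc

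The UPF2 window held CCAAT on the gene's strand with first bases at -96 and -66 from the start, and an E-box at -237. The UPF3B window held CCAAT on the gene's strand at -99 and on the other strand at -197. None of the 7 motifs was found in the SMG1 window, which is 75.6% G and C, against 66% for UPF2 and 62.8% for UPF3B. CCAAT occurs in 32% of all 35116 RefSeq windows of this length and the E-box in 6.34%, so neither is rare. The other motifs occur in 1.65% (CRE), 10.7% (TATA), 14.5% (ETS), 3.14% (ATF4) and 3.86% (YY1) of windows. These are matches of letters, not measured binding sites.

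Without caffeine, the 9 mRNAs spanned an order of magnitude once their exonic length was taken into account. At 0 µM, SMG5 had the highest level at 40.0 ± 2.25 CPM per kilobase of exon (SD, n = 3). UPF3A at 19.7 ± 0.778 and UPF1 at 19.1 ± 1.14 CPM per kilobase followed and did not differ beyond their spread. SMG8 at 9.92 ± 0.259 and UPF2 at 9.60 ± 0.823 CPM per kilobase formed the next pair, also within their spread, and UPF3B at 7.18 ± 0.675 and SMG9 at 6.96 ± 0.100 CPM per kilobase the one after. SMG1 at 4.13 ± 0.197 and SMG6 at 3.41 ± 0.212 CPM per kilobase were lowest. The kinase and the endonuclease were thus lowest of the 9 factors on this scale, and the adaptor SMG5 highest. The divisor was the union of all annotated exons, which can be longer than an mRNA. It was 5772 bases for UPF3A, 25988 for SMG1 and 5304 for SMG5, against longest coding transcripts of 2387, 16115 and 4559 bases. Levels per length of transcript were not worked out, and the order could differ on them.

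**Figure D1:**
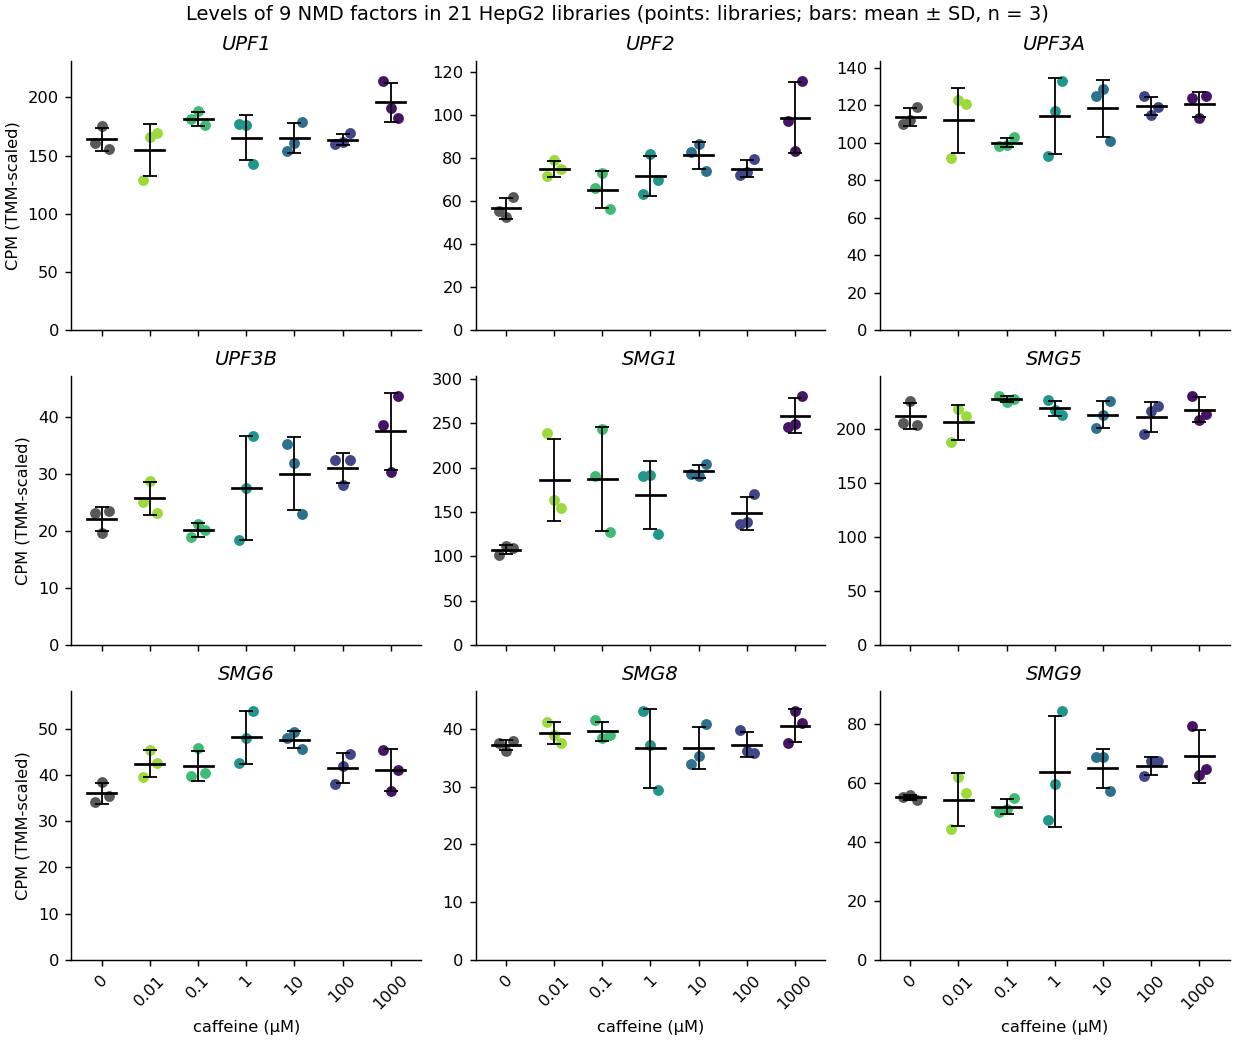
Level of each factor in CPM (vertical axis, from 0, TMM-scaled) by caffeine dose (horizontal axis, µM); points are the 21 libraries, horizontal bars with whiskers the mean ± SD of 3 libraries. SMG1 lies above its 3 libraries at 0 µM in all 18 caffeine libraries, UPF2 and UPF3B have their highest means at 1000 µM, and SMG5 stays between 188 and 231 CPM.

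SMG1, the kinase that phosphorylates UPF1, had the largest difference from the controls among the 9 factors when no adjustment for transcript length was made; with that adjustment, described further on, SMG1 was at 0.70 and UPF3B at 0.82 on the log2 scale. The level of SMG1 was 102, 112 and 109 CPM in the 3 libraries at 0 µM and 246, 249 and 281 CPM in the 3 at 1000 µM. The 2 groups did not overlap, and all 3 libraries at 1000 µM were above every library of the other doses. The means were 107 ± 5.12 and 259 ± 19.0 CPM (SD, n = 3), a log2 fold change of 1.27 ± 0.20 (SE; edgeR's quasi-likelihood test, Benjamini-Hochberg adjusted over all 17468 genes, adjusted p = 0.000114).

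SMG1 was also above the controls at the lower doses, but with a wide spread and without a steady order by dose. It was 239, 163 and 155 CPM at 0.01 µM, then 191, 244 and 127 at 0.1 µM, and 190, 192 and 125 at 1 µM. It was 193, 190 and 204 CPM at 10 µM, and at 100 µM 136, 139 and 170 CPM. All 18 caffeine libraries were above all 3 control libraries, which holds for 2.28% of the tested genes and for no other factor. By mean level the doses ran 0, 100, 1, 0.01, 0.1, 10 and 1000 µM. Neighbours in that order overlapped except at its ends, between 0 and 100 µM and between 10 and 1000 µM.

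At 10 µM the log2 fold change of SMG1 was 0.87 ± 0.20 (edgeR, adjusted p = 0.00790), and at 0.01 µM 0.79 ± 0.20 (adjusted p = 0.0400). The call at 0.01 µM was lost without any 1 of the control libraries (adjusted p = 0.174, 0.146 and 0.0552 without replicates 1, 2 and 3) and without replicate 1 (0.57, adjusted p = 0.136) or 2 (adjusted p = 0.0598) at 0.01 µM. At 0.1, 1 and 100 µM the log2 fold changes were 0.80, 0.65 and 0.47, with adjusted p = 0.114, 0.0916 and 0.155. Leaving out the lowest library at 0.1 µM, replicate 3, brought SMG1 at that dose to 1.02 with an adjusted p of 0.0113. All doses were compared with the same 3 control libraries, and whether 100 µM differed from 10 µM was not tested.

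The SMG1 pseudogenes, copies of part of SMG1 that do not encode the kinase, share stretches of sequence with it (each between 4.84% and 8.3% of the 75-base stretches of SMG1), so a read from such a stretch could be assigned to either. How such reads were assigned is not given in the sources used here. Of 7 with counts, 3 rose at 1000 µM against 0 µM, beside 20.6% of all tested genes. These were SMG1P1 by 1.35 ± 0.22 on the log2 scale (edgeR, adjusted p = 0.000148), SMG1P4 by 1.87 ± 0.55 (adjusted p = 0.0122) and SMG1P3 by 0.71 ± 0.23 (adjusted p = 0.0193). SMG1P4 had only 17, 44 and 18 counts in the 3 control libraries. The other 4 pseudogenes did not pass: log2 fold changes were -0.01 for SMG1P2, -0.12 for SMG1P5, -0.03 for SMG1P6 and 0.11 for SMG1P7. Against the mean of the 0.01, 0.1 and 1 µM groups, 1 of the 7 was higher at 1000 µM, beside 16.2% of all tested genes. It was SMG1P1 (0.47, edgeR, adjusted p = 0.0464), while SMG1P4 (0.65, adjusted p = 0.241) and SMG1P3 (0.10, adjusted p = 0.707) did not pass. Among the summed counts of SMG1 and these pseudogenes, SMG1 itself made up 62.9% to 65.0% in the control libraries and 72.3% to 76.1% at 1000 µM. In the groups from 0.01 to 100 µM that share ran from 63.1% to 73.3%.

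UPF2 and UPF3B, the proteins that link UPF1 to the exon junction complex, were the other factors higher at 1000 µM. UPF2 was at 55.3, 52.7 and 62.1 CPM at 0 µM and at 97.6, 83.4 and 116 CPM at 1000 µM. The groups did not overlap. The means were 56.7 ± 4.86 and 99.0 ± 16.4 CPM (SD, n = 3), and the log2 fold change was 0.80 ± 0.12 (edgeR, adjusted p = 8.29e-05). Between these doses UPF2 was 71.7, 79.1 and 74.9 CPM at 0.01 µM, 66.4, 73.4 and 56.6 at 0.1 µM, 63.3, 81.9 and 70.0 at 1 µM, 82.9, 86.9 and 74.2 at 10 µM and 72.3, 73.5 and 79.7 at 100 µM. Of the 18 caffeine libraries, 17 were above all controls; the exception was 1 library at 0.1 µM. The groups next to each other in order of mean overlapped throughout, so the intermediate doses have no clear order.

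UPF2 also passed at 10 µM, where its log2 fold change was 0.52 ± 0.12 (edgeR, adjusted p = 0.00860). At 0.01 and 100 µM it was 0.41 at both, with adjusted p = 0.0580 and 0.0572. Both doses passed when the control replicate 3, the highest UPF2 value among the controls, was left out (adjusted p = 0.0498 and 0.0469). At 0.1 and 1 µM UPF2 did not pass, at 0.21 and 0.34.

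UPF3B, which is encoded on the X chromosome, was at 23.1, 19.7 and 23.5 CPM at 0 µM and at 38.5, 30.3 and 43.7 CPM at 1000 µM. The groups did not overlap. The means were 22.1 ± 2.08 and 37.5 ± 6.77 CPM (SD, n = 3), a log2 fold change of 0.76 ± 0.20 (edgeR, adjusted p = 0.00526). It was 25.1, 28.8 and 23.2 CPM at 0.01 µM, 18.9, 21.3 and 20.2 at 0.1 µM, 18.4, 27.6 and 36.7 at 1 µM, 35.2, 32.0 and 23.0 at 10 µM and 32.5, 28 and 32.5 at 100 µM. The 1 µM group spread from below the controls to above every library at 100 µM. In the fit of all 21 libraries UPF3B passed at no dose below 1000 µM, with 0.44 (adjusted p = 0.116) at 10 µM and 0.49 (adjusted p = 0.133) at 100 µM. Without replicate 3, the lowest library at 10 µM, that dose gave 0.61 with an adjusted p of 0.0422. With only the 2 groups in the fit, UPF3B passed at 10 and at 100 µM.

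UPF3A, the paralog of UPF3B, and UPF1, the helicase at the centre of the pathway, did not pass at any dose. UPF3A was 110, 112 and 119 CPM at 0 µM and 124, 113 and 125 CPM at 1000 µM, groups that overlapped, and its log2 fold change was 0.09 ± 0.12 (edgeR, adjusted p = 0.591). At 0.1 µM its 3 libraries (98.5, 98.7 and 103 CPM) were all below the controls, as for 12.4% of all tested genes, with a log2 fold change of -0.18 (adjusted p = 0.507). UPF1 was 161, 175 and 156 CPM at 0 µM and 214, 191 and 182 CPM at 1000 µM. These 2 groups of UPF1 did not overlap, and the log2 fold change was 0.25 ± 0.11 (adjusted p = 0.0663). UPF1 passed at 1000 µM with RLE size factors (adjusted p = 0.0426), with DESeq2 (adjusted p = 0.0266) and with only the 2 groups in the fit (adjusted p = 0.0443). At the other doses, the UPF1 group means lay between 155 and 182 CPM.

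**Figure D2:**
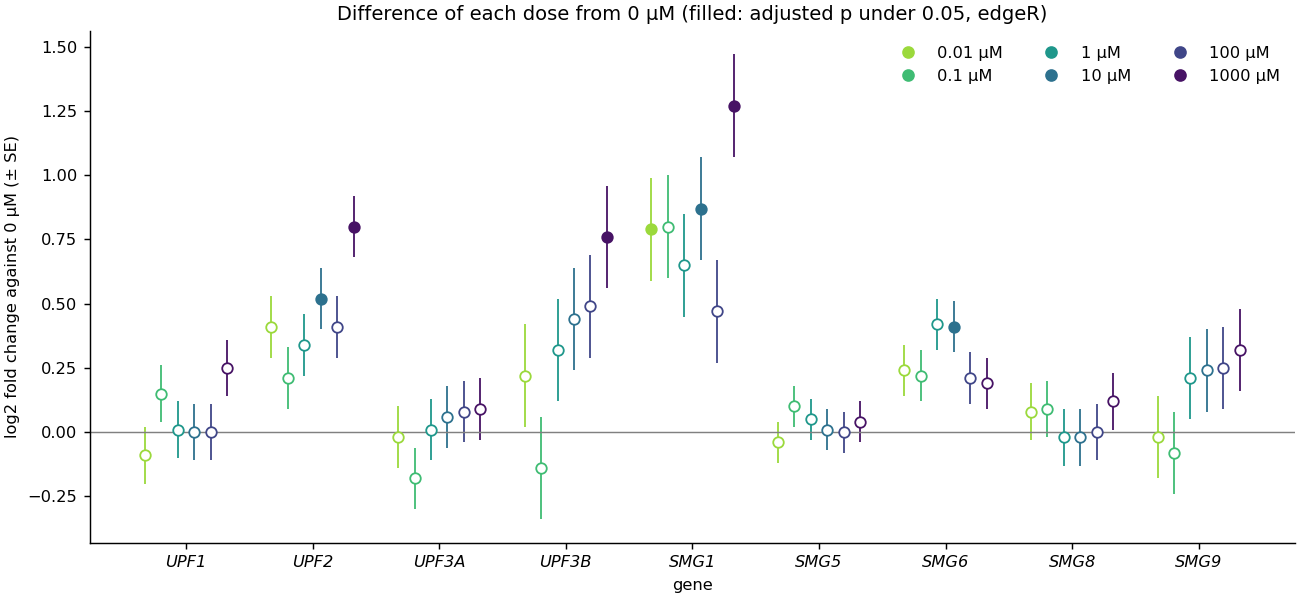
Log2 fold change of each factor against 0 µM (vertical axis, ± SE) for the 6 caffeine doses (colours, low to high from left to right within a gene); filled points pass an adjusted p of 0.05 in edgeR. SMG1 is above 0 at every dose and reaches 1.27 at 1000 µM, whereas every value of SMG5 lies between -0.04 and 0.10.

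The subunits that regulate the kinase, SMG8 and SMG9, passed at no dose against 0 µM in the fit of all 21 libraries. SMG8 was 37.5, 36.2 and 38 CPM at 0 µM and 37.5, 43.2 and 41 CPM at 1000 µM, groups that overlapped, with a difference of 0.12 ± 0.11 on the log2 scale (edgeR, adjusted p = 0.382). SMG9 was 55.2, 55.9 and 54.3 CPM at 0 µM and 79.5, 62.9 and 64.7 CPM at 1000 µM. Its libraries at 10 µM (68.8, 68.7 and 57.4 CPM) and 100 µM (62.3, 67.6 and 67.5 CPM) were likewise all above the controls. None of these differences passed, the one at 1000 µM being 0.32 ± 0.16 (adjusted p = 0.114). At 0.01, 0.1 and 1 µM the SMG9 libraries overlapped the controls, with the widest spread at 1 µM (47.3, 59.8 and 84.6 CPM). In these 3 libraries at 1 µM, mitochondrial genes made up 4.95%, 7.80% and 14.2% of counts, the lowest and highest shares of all 21 libraries among them. UPF3B was likewise lowest in the first and highest in the last of the 3. Whether this share bears on the spread was not tested.

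Of the effectors, SMG5 passed at no dose against 0 µM and SMG6 at 1 dose. SMG5 was 206, 226 and 204 CPM at 0 µM and 231, 209 and 214 CPM at 1000 µM, groups that overlapped, with a log2 fold change of 0.04 ± 0.08 (edgeR, adjusted p = 0.715). SMG6, the endonuclease, was 34.1, 38.5 and 35.5 CPM at 0 µM and rose at 10 µM, to 48.0, 49.4 and 45.7 CPM. The log2 fold change of SMG6 at 10 µM was 0.41 ± 0.10 (adjusted p = 0.0114). It was lost without control replicate 1 (0.37, adjusted p = 0.0616).

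The mean of SMG6 was highest at 1 and 10 µM. It was 42.6, 48.1 and 54.0 CPM at 1 µM, all above the controls, with a log2 fold change of 0.42 ± 0.10 that did not pass (edgeR, adjusted p = 0.0839; without replicate 1 at that dose 0.51, adjusted p = 0.0380). At 1000 µM it was 45.5, 36.5 and 41.2 CPM, which overlaps the controls, with 0.19 ± 0.10 (adjusted p = 0.149). Without replicate 2 at 1000 µM, its lowest library there, the value was 0.29 (adjusted p = 0.0428). The libraries at 0.01 µM (39.6, 45.4 and 42.6 CPM) and 0.1 µM (39.9, 45.8 and 40.4 CPM) lay above the controls without passing.

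Counted over the 9 factors, 3 were higher at 1000 µM than at 0 µM and none was lower, beside 20.6% of all tested genes called higher and 20.6% lower. At 10 µM 3 factors were higher (UPF2, SMG1 and SMG6), beside 11.3% of all genes. That background of 1975 genes fell to 694 and 1160 without control replicate 1 or 2, and to 869 and 1056 without replicate 1 or 2 at 10 µM. At 0.01 µM SMG1 alone was higher, beside 2.87% or 501 genes, and this number was 0 without control replicate 1 or 2 or without replicate 1 or 2 at that dose. The caffeine libraries thus differed from the controls in many genes, and these counts do not set the factors apart from other genes. The median log2 fold change of the 9 factors at 1000 µM was 0.25, and that of all tested genes -0.03.

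In edgeR's fit of all 21 libraries with the filter on low counts, no factor passed at 100, 1 or 0.1 µM, where 6.02%, 0% and 0% of all tested genes passed in either direction. With only the groups compared, edgeR passed 4 factors at 100 µM (UPF2, UPF3B, SMG1 and SMG9), beside 4015 of 16230 genes in either direction. Without the filter it passed 1 at 100 µM, beside 952 of 34619 genes, and 1 at 0.1 µM, beside 101 of 34619. Single libraries moved the counts over all genes. The 1051 genes at 100 µM became 47 or 26 without control replicate 1 or 2, and 375, 42 or 36 without replicate 1, 2 or 3 of that dose. The 0 genes at 1 µM became 1264 without replicate 1 of that dose, and the 0 genes at 0.1 µM became 865 without replicate 3 there.

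At an unadjusted p under 0.05 in edgeR there were 3 factors at 100 µM (UPF2, UPF3B and SMG1), beside 25.6% of all tested genes. There were 3 at 1 µM (UPF2, SMG1 and SMG6), beside 22.8%, and 2 at 0.1 µM (SMG1 and SMG6), beside 15.2%. With DESeq2, 1 of the factors passed at 100 µM (UPF2), beside 14.2% of the genes to which it gave an adjusted p. It passed 2 at 1 µM (SMG1 and SMG6), beside 9.90%, and 1 at 0.1 µM (SMG1), beside 3.70%.

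By position of the libraries alone, the 3 libraries of a dose were all above the 3 controls for 5 factors at 1000 µM (UPF1, UPF2, UPF3B, SMG1 and SMG9), beside 25.9% of all genes. The number was 4 at 100 µM (UPF2, UPF3B, SMG1 and SMG9; 21.0% of genes) and 4 at 10 µM (UPF2, SMG1, SMG6 and SMG9; 22.4%). It was 3 at 1 µM (UPF2, SMG1 and SMG6; 11.1%), 4 at 0.1 µM (UPF1, SMG1, SMG6 and SMG8; 10.1%) and 3 at 0.01 µM (UPF2, SMG1 and SMG6; 15.7%). SMG1 was in each of these groups, and SMG5 and UPF3A in none.

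A comparison that does not use the control libraries set 1000 µM against the mean of the 3 lowest doses, 0.01, 0.1 and 1 µM, here called the trace doses. UPF3B was higher by 0.63 ± 0.16 on the log2 scale (edgeR, adjusted p = 0.00499), SMG1 by 0.52 ± 0.16 (adjusted p = 0.0188) and UPF2 by 0.49 ± 0.10 (adjusted p = 0.00106). These are 3 of the 9 factors, beside 16.2% of all tested genes, or 2825, which became 1768 without replicate 3 at 1000 µM. UPF2 passed without any single library, but without replicate 3 at 1000 µM, the highest library for all 3 genes, UPF3B (0.50, adjusted p = 0.0631) and SMG1 (0.46, adjusted p = 0.109) did not pass. UPF1 at 0.23 (adjusted p = 0.0508) and SMG9 at 0.29 (adjusted p = 0.0985) missed the threshold; UPF1 passed in 6 of the 12 fits that left out 1 library, each of a trace dose (adjusted p as low as 0.0277), and SMG9 without replicate 3 at 1 µM (0.37, adjusted p = 0.00853). SMG6 was at -0.11 and SMG5 at 0.00.

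The trend over all 21 libraries was fitted on dose steps (the doses ranked from 0 to 6), and 4 factors rose along it, beside 14.5% of all tested genes. The slope per step was 0.12 ± 0.03 on the log2 scale for UPF3B (edgeR, adjusted p = 0.00266), 0.10 ± 0.02 for UPF2 (adjusted p = 0.00131), 0.11 ± 0.04 for SMG1 (adjusted p = 0.0251) and 0.07 ± 0.02 for SMG9 (adjusted p = 0.0199). The slopes of UPF2 and UPF3B passed whichever single library was left out. That of SMG1 was lost without any 1 of the 3 control libraries (adjusted p = 0.0712, 0.0674 and 0.0627) or of the 3 at 1000 µM (0.0601, 0.0543 and 0.0874), and that of SMG9 without replicate 1 at 1000 µM (adjusted p = 0.0572). Without the whole 1000 µM group none of the 4 passed; the slopes were then 0.10 for UPF3B (adjusted p = 0.0760) and 0.06 for SMG1 (adjusted p = 0.449). Without the whole 0 µM group UPF2 and UPF3B passed, whereas SMG1 (0.05, adjusted p = 0.425) and SMG9 (0.08, adjusted p = 0.0696) did not.

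Fold changes against 0 µM went with transcript length at every caffeine dose. Over the 15694 tested genes with a length, the median log2 fold change at 1000 µM was -0.38 in genes of the lowest length quartile (up to 2587 exonic bases) and 0.26 in those of the highest (over 6865 bases). At 10 µM these medians were -0.26 and 0.19. SMG1, with 25988 exonic bases, is longer than nearly all genes (percentile 99.7), and SMG6 with 10554 bases is at percentile 91.7. UPF2 (5906 bases, percentile 66.7) and UPF3B (3081 bases, percentile 32.3) are of middle length. The length quartile that holds UPF3B had a median of -0.15 at 1000 µM, and the one that holds UPF2 a median of 0.04.

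When each library was adjusted for a smooth trend in exonic length and GC content, the factors higher at 1000 µM were again SMG1 (0.70, edgeR, adjusted p = 5.05e-05), UPF2 (0.57, adjusted p = 0.00221) and UPF3B (0.82, adjusted p = 0.00653). The value of SMG1 was thus 0.70 in place of 1.27, while that of UPF3B was little changed. Over all genes this fit called 6387 of 15694 at 1000 µM against 0 µM, 3309 of them higher. Against the trace doses it called 5540, of which 2933 were higher. SMG6 at 10 µM was 0.18 (adjusted p = 0.0836) and SMG1 at 0.01 µM was 0.36 (adjusted p = 0.0651) after this adjustment, and neither passed. Against the trace doses SMG1 (0.33, adjusted p = 0.00467), UPF2 (0.32, adjusted p = 0.0244), UPF3B (0.60, adjusted p = 0.0119) and also UPF1 (0.27, adjusted p = 0.0110) passed. UPF3A at 1000 µM was at -0.10 instead of 0.09, and passed in neither.

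**Figure D3:**
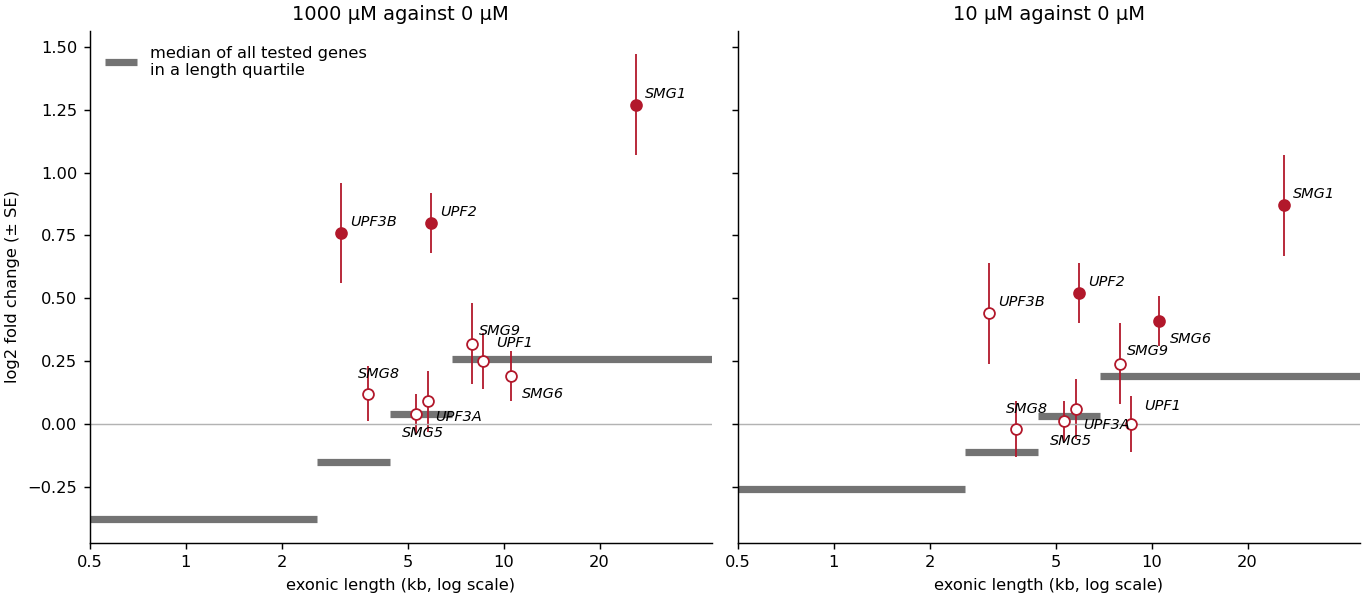
Log2 fold change of the 9 factors (red, ± SE; filled points pass an adjusted p of 0.05) against exonic length in kilobases (log axis), at 1000 µM and at 10 µM against 0 µM; grey bars are the medians of all tested genes in each length quartile. The grey medians climb from -0.38 to 0.26 at 1000 µM, and SMG1, UPF2 and UPF3B lie well above the bar of their own quartile.

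Other genes of the pathway were taken from lists of known function. Their counts at 1000 µM against 0 µM stand beside the 20.6% of all tested genes that were higher and the 20.6% that were lower, and those against the trace doses beside 16.2% higher and 14% lower. Among other NMD machinery, 5 of 15 tested genes rose and 2 fell at 1000 µM against 0 µM, with a median log2 fold change of 0.19. Among those that rose were ICE1 (0.84 ± 0.14, edgeR, adjusted p = 0.000158), the decapping adaptor PNRC2 (0.57 ± 0.15, adjusted p = 0.00576) and the translation factor CTIF (0.40 ± 0.11, adjusted p = 0.00681). PPP2R1A, a scaffold subunit of phosphatase 2A, fell by 0.37 and the helicase MOV10 by 0.25. Without control replicate 1, or without replicate 3 at 1000 µM, 3 of these genes rose and 1 fell. Against the trace doses 5 rose and 2 fell as well, and without replicate 3 at 1000 µM 2 rose and 1 fell.

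The exon junction complex, the mark that UPF3B recognises, had 4 of 8 genes lower, 2 higher and 2 that did not pass, with a median of -0.37, beside 20.6% of all tested genes in each direction. In the lowest length quartile, however, 33.3% of all genes were lower and 5.88% higher, with a median of -0.38. In the highest, 9.10% were lower and 42.0% higher, with a median of 0.26. Lengths of the complex's genes, and its counts with the length and GC adjustment, are not given here. The same holds for the other NMD machinery and for the chaperones named below. The core subunits MAGOH, from 33.3 ± 7.48 to 17.8 ± 2.45 CPM (SD, n = 3; -0.90 ± 0.16, edgeR, adjusted p = 0.000250), MAGOHB (-0.71 ± 0.13, adjusted p = 0.000488) and EIF4A3 (-0.56 ± 0.17, adjusted p = 0.0127) fell, as did the disassembly factor PYM1 (-0.53 ± 0.11, adjusted p = 0.000935). CASC3, the peripheral core subunit, rose by 0.56 ± 0.12 (adjusted p = 0.000984) and the loading factor CWC22 by 0.50 ± 0.16 (adjusted p = 0.0162). Against the trace doses MAGOH (-0.46) and MAGOHB (-0.40) were lower, CASC3 (0.26) was higher and 5 did not pass; without replicate 3 at 1000 µM none of the 8 passed in that comparison, and without replicate 1 at 1000 µM 1 did. Of the chaperones that assemble SMG1 and other PIKKs, 3 of 6 fell and none rose (TELO2 by 0.71, TTI2 by 0.36 and RUVBL1 by 0.32 on the log2 scale). Only 1 of these chaperones fell without any 1 of the control libraries or without replicate 3 at 1000 µM.

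Of 12 enzymes and cofactors of mRNA decay, 9 rose and none fell, with a median of 0.47, beside 20.6% of all tested genes higher and 20.6% lower. The exonuclease XRN1 went from 10.8 ± 0.407 to 22.7 ± 3.50 CPM (SD, n = 3; 1.07 ± 0.18, edgeR, adjusted p = 0.000199). The decapping factor DCP1A rose by 0.85 ± 0.13, the nuclear exonuclease XRN2 by 0.63 ± 0.09 and CNOT1, the scaffold of the deadenylase, by 0.54 ± 0.12. With the adjustment for length and GC content, 5 of these enzymes rose and 2 fell. Against the trace doses 8 rose, and 3 without replicate 3 at 1000 µM.

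Transcripts known as NMD targets, which accumulate when the pathway is inhibited, did not move in 1 direction at 1000 µM. At 10 µM against 0 µM none of the listed targets was higher in edgeR, beside 11.3% of all tested genes. Lower at 10 µM were 4 of 8 snoRNA host genes, 5 of 10 stress-response mRNAs, 1 of 7 other mRNAs and 1 of 7 genes with poison exons. This stands beside 10.7% of all tested genes, and 19.9% of those in the lowest length quartile. How the 10 µM counts of targets move with single libraries is not given here. Among snoRNA host genes, whose spliced RNAs are classic targets, 2 of 8 tested fell at 1000 µM against 0 µM, SNHG5 by 0.67 and SNHG12 by 0.47 on the log2 scale (edgeR, adjusted p = 0.0243 and 0.0239). The median of these hosts was -0.31. With 20.6% of all tested genes lower, a count of 2 in 8 is near the background and is no result about the hosts. The count at 1000 µM against 0 µM did not hold without single libraries: no host passed without control replicate 1 or without replicate 3 at 1000 µM, and 1 passed without control replicate 2 or 3, without replicate 1 at 1000 µM or with the length and GC adjustment. Against the trace doses 2 other hosts, GAS5 (0.44, adjusted p = 0.0111) and EPB41L4A-AS1 (0.25, adjusted p = 0.0499), were higher, named here because the count is small. That count was 1 without any 1 of 8 libraries, among them replicate 3 at 1000 µM; without replicate 2 at 1000 µM the 1 host that passed was lower.

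Stress-response mRNAs that NMD is known to limit were divided, with 5 of 10 higher and 3 lower at 1000 µM, beside 20.6% of all tested genes in each direction. ATF4, a transcription factor with upstream reading frames, went from 598 ± 45.5 to 958 ± 174 CPM (SD, n = 3; 0.68 ± 0.13, edgeR, adjusted p = 0.000456). GADD45B (0.68), ATF3 (0.54) and the ATF4 target ASNS (0.46) rose, whereas the cell cycle inhibitor CDKN1A fell by 1.27, DDIT3 by 0.59 and GADD45A by 0.39. Against the trace doses 5 rose and 2 fell, with ATF4 at 0.95 and CDKN1A at -1.12. With the adjustment for length and GC content 4 of these stress mRNAs rose and 1 fell at 1000 µM against 0 µM.

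Of 7 other mRNAs known as targets, 3 rose and 1 fell at 1000 µM, beside the same 20.6% in each direction. The autophagy gene GABARAPL1 rose from 11.2 ± 0.743 to 37.0 ± 5.81 CPM (SD, n = 3; 1.72 ± 0.11, edgeR, adjusted p = 6.55e-09), PTBP2 by 0.49, RP9P by 0.39, and DNAJB2 fell by 0.34 on the log2 scale. Without control replicate 1 or 2, or with the length and GC adjustment, 2 rose and none fell, and without replicate 3 at 1000 µM 1 rose. Of 7 genes whose poison exons lead to NMD, SRSF2 fell by 0.46 (edgeR, adjusted p = 0.00229) and SRSF7 by 0.46 (adjusted p = 0.0182). None rose, and without the length and GC adjustment the share that fell was near the background of 20.6%. That count was 1 without control replicate 2 or without replicate 1 or 3 at 1000 µM. With the adjustment for length and GC content 5 of the 7 fell, beside 6387 of 15694 genes called in that fit, 3309 of them higher. The count for this list thus depended on the adjustment. Whole-gene counts do not separate the isoform that carries the poison exon from the coding one.

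**Figure D4:**
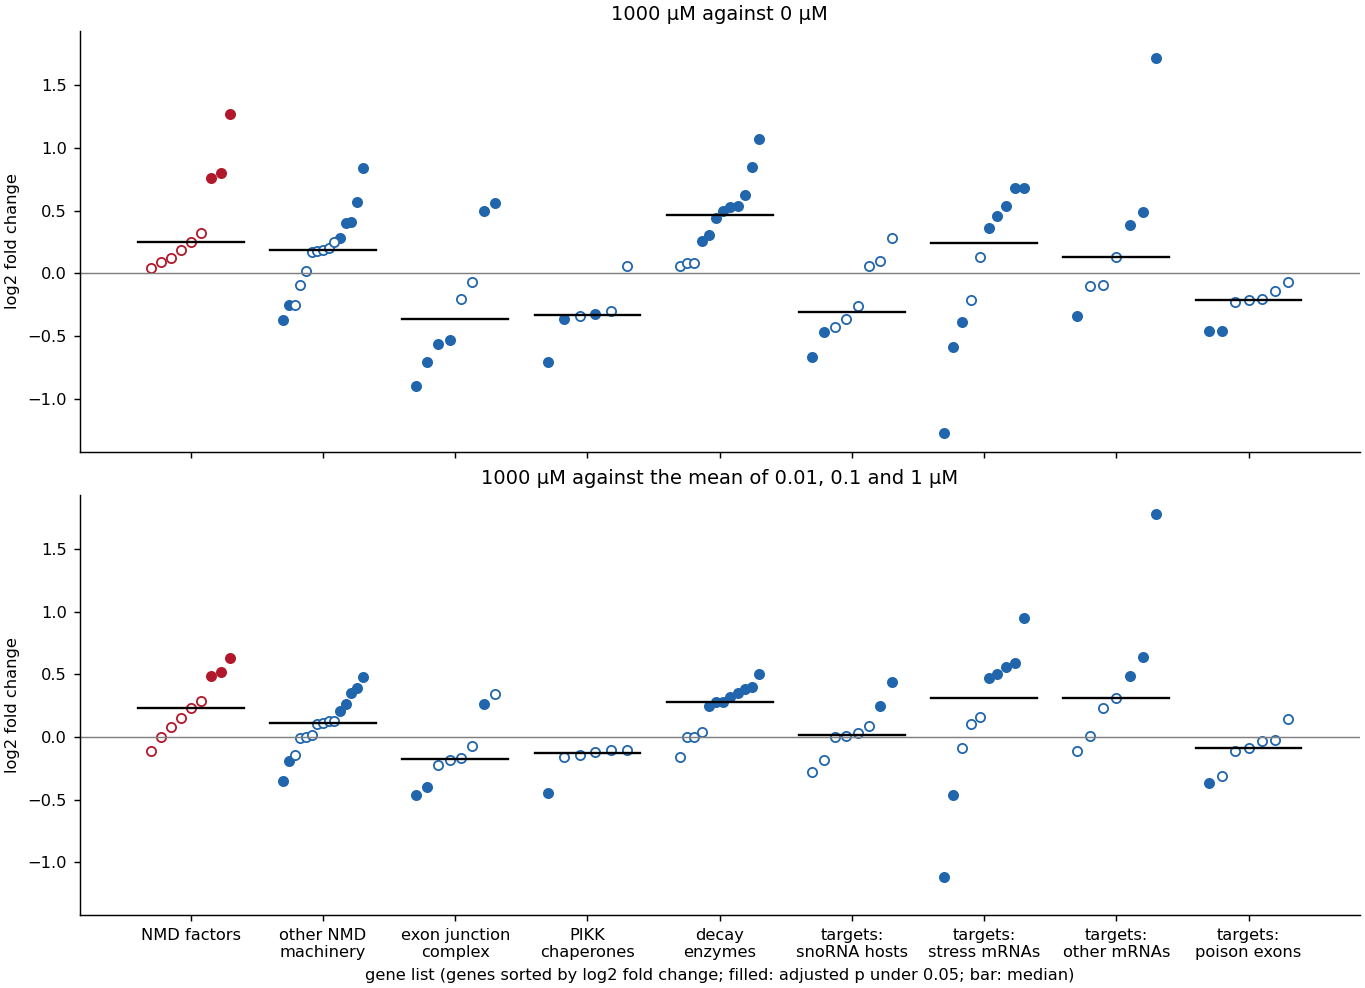
Log2 fold change (vertical axis) of each gene in 9 lists (horizontal axis, sorted within a list) at 1000 µM against 0 µM (top) and against the trace doses (bottom); filled points pass an adjusted p of 0.05 in edgeR, bars are list medians. The decay enzymes have the highest median of the 9 lists against 0 µM (0.47), and the list of poison exon genes lies wholly below 0 in the top panel, where the other 3 target lists span 0.

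Across the 21 libraries the 9 factors did not vary as 1 group. Of 36 pairs, 6 had a Pearson r of log2 CPM over 0.7 and 12 were below 0. The closest pairs were UPF3A with SMG9 (r 0.85), UPF3B with SMG9 (0.809), UPF2 with UPF3B (0.793), UPF3A with UPF3B (0.77), UPF2 with SMG1 (0.754) and UPF1 with SMG5 (0.735), and the lowest was SMG8 with SMG9 (-0.667). These values describe 21 libraries that share doses, scaling and composition. How often pairs of other genes reach such values was not worked out, so the 6 and 12 pairs have no background to be read against.

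Among 10831 genes with a symbol and a mean of at least 5 CPM, those most like UPF2 over the 21 libraries included RSF1 (r 0.986), THOC2 (0.972), LRRFIP1 (0.970) and EML4 (0.966). The closest gene was PCNX1 for SMG1 (0.985), LUC7L3 for UPF3B (0.967), SLC38A3 for SMG9 (0.963) and PLEKHA6 for SMG6 (0.959). For UPF1 it was POLG (0.945), for UPF3A PHF23 (0.939), for SMG8 ATP2C1 (0.937) and for SMG5 PSD4 (0.864). No factor was the closest gene of another factor.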

How the data were processed

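RNA sequencing read counts per gene, as whole numbers without normalization, were deposited by the authors for 21 HepG2 libraries in 1 table. HISAT2, DESeq2 and the build GRCh38 are named in the submitters' processing notes; the counting program, annotation and strand setting are not given in the sources used here. The table has 42 columns of per-sample values, of which 21 matched no sample and were not used. Symbols, positions and lengths came from GENCODE release 29, which holds 32338 of the 32937 Ensembl IDs, 21893 with the same version, and promoters from RefSeq. Differences were tested with edgeR 4.0.16 (R 4.3.3, quasi-likelihood test, TMM scaling, expression filter at a minimum count of 10), in 1 fit of 7 groups with 14 residual degrees of freedom, and the slope in a separate fit. Benjamini-Hochberg adjustment ran over 17468 genes, and the threshold was 0.05. The standard error of a log2 fold change was taken from its size and the square root of F. The scripts were tested on simulated data. No pair of replicate libraries was close enough to be 1 library deposited again (chi-square per gene 5.45 to 207).

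The 9 factors and all lists were chosen with earlier results of these data known. All factors are named; of each other list up to 4 higher and 4 lower genes with the largest change at 1000 µM against 0 µM are named, and all SMG1 pseudogenes. Likeness used log2 CPM with a prior count of 2. Some genes that these rules pick are left out of the text. Alternatives were a threshold of 0.01, RLE size factors, no filter, a replicate block, DESeq2 1.42.0, only the groups compared, slopes without an end group, leaving out each library and, chosen after seeing the data, length and GC offsets per library (lowess, span 0.3). Of the listed genes, GSPT2 and the marker PECAM1 were not matched, and SNHG15 did not pass the filter.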

Additional observations from a re-analysis of the deposited data

How the results depend on the processing

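Counts of the 9 factors past the threshold are given first where they moved by more than 1.5 times. At 0.01 µM, where 1 factor passed, 0 factors passed with adjusted p under 0.01, with the replicate block, with only the groups compared and with length and GC offsets, and 2 with RLE size factors and with DESeq2. At 100 µM, where 0 passed, it was 1 with no filter, 1 with DESeq2 and 4 with only the groups compared, and at 1000 µM, where 3 passed, 5 with only the groups compared. At 0.1 µM 1 passed with no filter and 1 with DESeq2, and at 1 µM 2 with DESeq2. Smaller moves were from 3 factors at 10 µM to 2 (adjusted p under 0.01, length and GC offsets) or 4 (only the groups compared), at 1000 µM from 3 to 4 (RLE, DESeq2), and against the trace doses from 3 to 2 (adjusted p under 0.01, only the groups compared) or 4 (RLE, DESeq2, length and GC offsets). The slope had 4 factors, 2 with adjusted p under 0.01, 0 without the 1000 µM group and 2 without the 0 µM group. Leaving out 1 library gave 3 to 4 factors at 1000 µM, 2 to 4 at 10 µM, 0 to 1 at each of the other doses, 1 to 4 against the trace doses and 2 to 4 for the slope. At 1000 µM UPF2, UPF3B and SMG1 passed in each of these fits. Of the values of single factors under all alternatives, 1070 kept their side of the threshold, 33 passed only under the alternative and 31 no longer passed; no value past the threshold changed sign. Same-numbered libraries share only a number: of 63 pairs 11 had a correlation of deviations over 0.1, and 5 of 21 libraries were closest to their own number. The replicate block changed the factor count at 0.01 µM only.

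Over all genes, DESeq2 called 2065 at 100 µM (edgeR 1051), 2139 at 0.01 µM (864), 1377 at 1 µM (0) and, for 0.1 µM, 539 (0). At 1000 µM DESeq2 called 7281 of 19892, and against the trace doses 5164 of 25904. With RLE size factors 7197 of 17468 passed at 1000 µM, 5258 against the trace doses and 1036 at 0.01 µM. Unfiltered, 230 genes passed at 1 µM and 101 at 0.1 µM. The replicate block left 445 at 100 µM and 0 at 0.01 µM. Only the groups compared gave 4015 of 16230 at 100 µM, 7094 of 16249 at 1000 µM and 5325 of 16298 at 10 µM. The same setting gave 3583 of 17006 against the trace doses, 2 at 0.01 µM and, for 0.1 µM, 1. The length and GC offsets gave 6387 of 15694 at 1000 µM, 5540 against the trace doses and 3650 at 10 µM. They gave 374 at 0.01 µM, 21 at 1 µM and, for 0.1 µM, 1. The slope had 1051 without the 1000 µM group and 1984 without the 0 µM group, against 5073.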
